A study of Mus musculus with 4 samples.

Results

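The proteasome genes were described in mouse bone marrow-derived macrophages given an inflammatory (M1) or an alternative (M2) stimulus. They are the 50 of 49315 genes in the count table whose Ensembl identifier carries a protein-coding symbol that begins with Psma to Psmg and a digit in GENCODE vM21 on GRCm38. The 50 fall into 15 core 20S genes, 4 inducible or thymic beta subunits, 17 subunits of the 19S particle, 5 activator genes and 8 assembly factors or regulators. The remaining gene, Psmc3ip, encodes a meiotic recombination cofactor that shares only the start of its symbol.

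Both groups are cultures from Lyz2Cre+ mice, in which Cre recombinase is expressed from the myeloid Lyz2 locus. Marrow cells were grown in medium with L-cell supernatant and, on day 7, placed in serum-free medium for 24 hours. For M1 (2 libraries) this medium held the bacterial lipopolysaccharide LPS at 100 ng/ml with interferon gamma at 50 ng/ml. For M2 (2 libraries) it held the cytokines IL-4 and IL-13, both at 10 ng/ml. Some cultures of the series received the EGF receptor inhibitor erlotinib, and for the 4 libraries analysed here that is not labelled. No unpolarized culture was analysed here, so "higher in M1" and "lower in M2" are the same statement. Whether the 2 libraries of a group represent different mice or culture dishes is not labelled either, and the p-values rest on a spread between libraries that may be technical.

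The 26S proteasome degrades proteins marked with ubiquitin. Its 20S core is a barrel of outer alpha rings and inner beta rings, and the beta1, beta2 and beta5 subunits carry the cutting sites. The 19S particle caps the barrel, recognises ubiquitin, removes it and unfolds the substrate with a ring of ATPases. In cells exposed to interferon gamma, the inducible subunits encoded by Psmb9, Psmb10 and Psmb8 are built into new cores in place of beta1, beta2 and beta5. The resulting immunoproteasome, together with the PA28 activator, is known for producing peptides for MHC class I molecules.

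The libraries held 26806370 to 39506242 gene counts, and 14656 genes passed the filter on low counts. Replicates correlated at r = 0.994 in M1 and 0.996 in M2 across these genes, which are not independent replicates, and libraries of different groups at 0.819 to 0.822. All 7 macrophage markers were detected, with a summed level of 4953 to 5173 CPM in M1 and 4334 to 4444 CPM in M2. These similar sums hide opposite changes. Csf1r and Cd68 were lower in M1 (log2 fold changes -2.64 and -3.39). The other 5 were higher: Fcgr1 (4.75), Mertk (3.04), Itgam (2.52), Lyz2 (1.97) and Adgre1 (1.22). Adgre1 alone had 3055 and 3123 CPM in M1 and 1365 and 1292 CPM in M2. Lyz2 itself reached only 25.3 and 27.3 CPM in M1 and 6.51 and 6.88 CPM in M2. Fibroblast markers moved with the groups, 4 of 5 being lower in M1 and Dcn higher: their summed level was 109 to 118 CPM in M1 and 1137 to 1162 CPM in M2, with Col1a1 at 40.7 and 38.2 CPM in M1 and 551 and 557 CPM in M2. Summed dendritic cell markers, mostly Ccr7, were 456 to 477 CPM in M1 and 3.50 to 4.41 CPM in M2. Xcr1 had 30.9 and 31.9 CPM in M1 and 0.064 and 0.087 CPM in M2. Flt3 stayed under 1 CPM in every library and was higher in M1 (log2 fold change 2.57). Zbtb46 was lower in M1 (-0.97), at 0.858 and 0.935 CPM in M1 and 2.20 and 1.41 CPM in M2. Neutrophil, lymphocyte, mast cell and erythroid markers each summed to under 10 CPM in every library. The part of these markers in the proteasome values was not tested. In bulk RNA, fewer cells of a type and less RNA per cell cannot be told apart.

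Most proteasome genes were higher in M1. Together they took 0.813% (95% Wilson interval 0.810 to 0.816) and 0.835% (95% Wilson interval 0.831 to 0.838) of all counts in the M1 libraries, against 0.475% (95% Wilson interval 0.473 to 0.478) and 0.485% (95% Wilson interval 0.483 to 0.487) in the M2 libraries. These intervals cover counting error only. Levels below are CPM, gene counts scaled by library size and TMM factors (which assume that most genes do not change), and changes are log2 fold changes of M1 over M2 with their standard error (SE). Of the 50 genes, 49 passed the filter. By edgeR's quasi-likelihood test at an adjusted p under 0.05, 42 of the 49 were higher in M1, 4 were lower and 3 were not called. Over all genes tested, 77.2% were called, 37.5% higher and 39.7% lower. The median change of the 49 was 1.05 log2 units, beside -0.04 over all genes tested. When a change beyond 2-fold was asked for (glmTreat), 19 of the 49 were called higher and 0 lower, beside 14.8% and 18.3% of all genes. The M1 and M2 libraries did not overlap for any of the 49, with 44 higher and 5 lower in M1, against 42.7% and 45.8% of all genes. These counts shifted when a single library was left out, among them those of the 4 lower genes and of the 19 called beyond 2-fold. In those fits the median change of the 49 ran from 1.00 to 1.05.

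**Figure D1:**
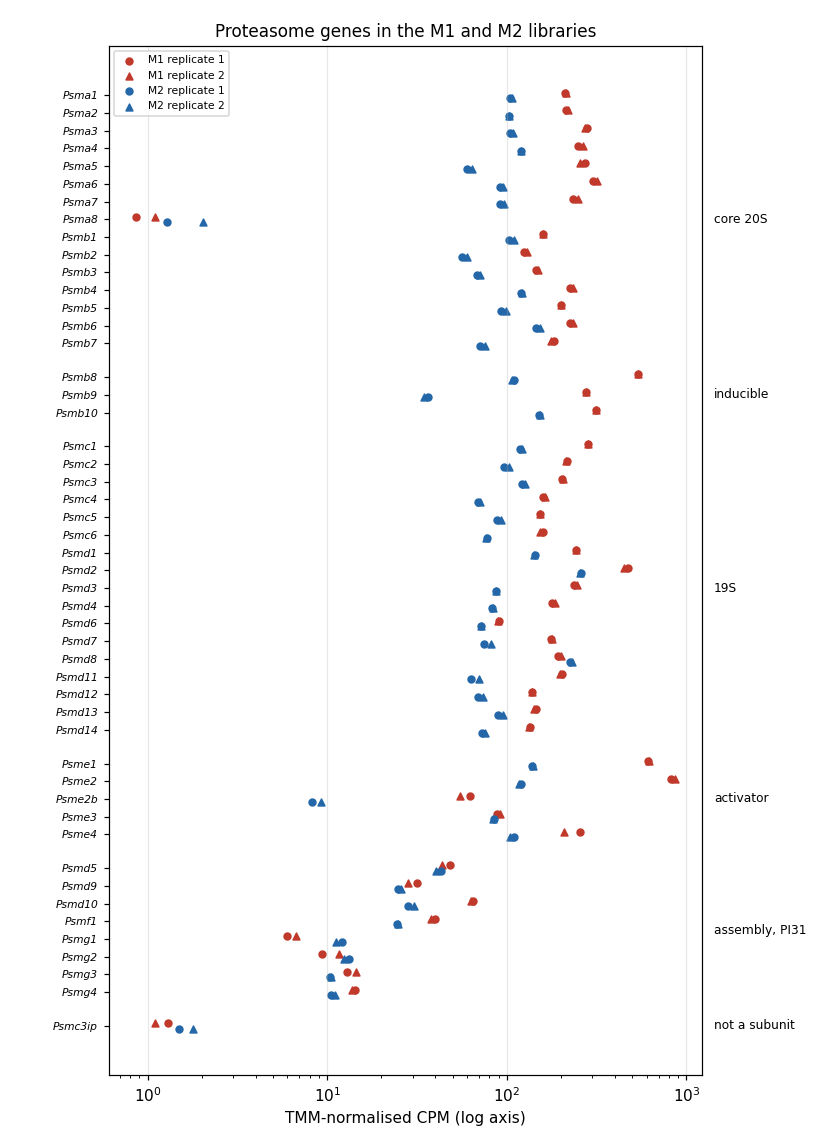
Level of the 49 tested proteasome genes in each library, as TMM-normalised CPM on a log axis, with M1 libraries in red, M2 libraries in blue, circles for replicate 1 and triangles for replicate 2. Nearly all 20S, inducible and 19S genes sit at a higher level in both M1 libraries than in both M2 libraries, and Psma8, Psmd8, Psmg1, Psmg2 and Psmc3ip lie the other way.

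The inducible catalytic subunits were all higher in M1, by unequal amounts. Psmb9, the inducible beta1 subunit (LMP2; chr17:34181987-34187764, minus strand), had 275 and 275 CPM in the M1 libraries, against 36.5 and 34.7 CPM in the M2 libraries. Its M1 values are nearly equal and far above both M2 values. It shares 212 exon bases with Tap1 on the opposite strand, which had 1198 and 1242 CPM in M1 and 53.5 and 49.0 CPM in M2, and the part of those bases in its counts was not tested. The change was 2.95 ± 0.07 (7.74-fold, adjusted p = 3.83e-15 by edgeR), the largest of the 49. Psmb8, the inducible beta5 subunit (LMP7; chr17:34197721-34201454, plus strand), had 541 and 538 CPM in the M1 libraries, against 109 and 107 CPM in the M2 libraries. Both M1 libraries lay well above both M2 libraries, and the change was 2.32 ± 0.07 (4.99-fold, adjusted p = 5.03e-14 by edgeR). Psmb10, the inducible beta2 subunit (MECL-1; chr8:105935735-105938444, minus strand), had 313 and 315 CPM in the M1 libraries, against 151 and 152 CPM in the M2 libraries. It rose by 1.05 ± 0.06 (2.07-fold, adjusted p = 3.86e-10 by edgeR) and, unlike Psmb8 and Psmb9, was not called beyond 2-fold (glmTreat adjusted p = 0.216). All 3 inducible genes were thus detected in both M2 libraries as well. Psmb11, the thymus-specific beta5 subunit, had 4 counts in M1 replicate 1 and none in the other libraries, and was not tested.

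The constitutive catalytic subunits were higher in M1 as well. Psmb6, the beta1 subunit, had 226 and 234 CPM in the M1 libraries, against 145 and 154 CPM in the M2 libraries, a change of 0.62 ± 0.06 (1.54-fold, adjusted p = 2.69e-07 by edgeR). Psmb7, the beta2 subunit, had 183 and 177 CPM in the M1 libraries, against 71.1 and 75.4 CPM in the M2 libraries, a change of 1.30 ± 0.06 (2.45-fold, adjusted p = 3.77e-11). Psmb5, the beta5 subunit, had 201 and 199.8 CPM in the M1 libraries, against 92.8 and 99.4 CPM in the M2 libraries, a change of 1.06 ± 0.06 (2.08-fold, adjusted p = 4.51e-10). No library of one group reached into the other for any of these genes, and the constitutive genes were higher in the same libraries as their inducible replacements.

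Each inducible subunit was set against the constitutive subunit whose place it takes, as the log2 ratio of CPM per kb of merged exons within a library. The difference of these ratios between groups depends neither on the scaling of the libraries nor on the gene lengths. For beta1, Psmb9 over Psmb6 stood at -0.68 and -0.73 in M1, against -2.96 and -3.11 in M2, a difference of 2.33 or 5.02-fold. For beta5, Psmb8 over Psmb5 stood at -0.48 and -0.48 in M1, against -1.68 and -1.80 in M2, a difference of 1.26 or 2.39-fold. For beta2, Psmb10 over Psmb7 stood at 1.78 and 1.84 in M1, against 2.09 and 2.02 in M2, a difference of -0.25. The transcript balance was thus further towards the inducible subunit in M1 at beta1 and beta5, and slightly less so at beta2. The groups did not overlap in any of the 3 ratios. The smallest two-sided exact permutation p that 2 libraries against 2 allow is 0.333, and no other test was made of the ratios.

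Summed over the 6 catalytic genes, the inducible subunits made up 51.3% and 51.2% of CPM per kb in M1, against 39.3% and 37.8% in M2. The means were 51.2 ± 0.0571% and 38.6 ± 1.05% (SD, n = 2 each), a difference of 12.7 percentage points. Merged exons count sequence that most transcripts lack, and the level of the share moves with the length used: per kb of coding sequence it was 64.5 ± 0.0758% in M1 and 46.8 ± 1.19% in M2. On either length the M1 libraries lay above the M2 libraries.

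**Figure D2:**
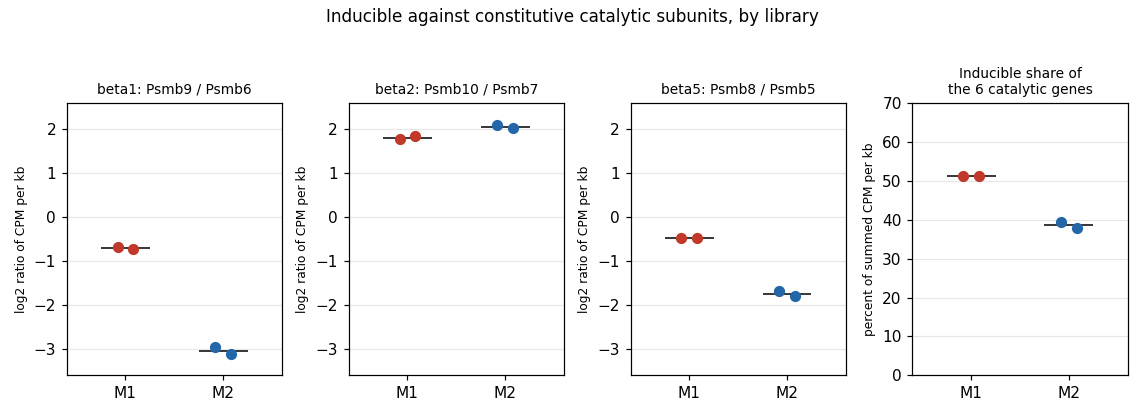
Inducible over constitutive catalytic subunit in each library, as the log2 ratio of CPM per kb of merged exons for beta1, beta2 and beta5, and the inducible share of the summed CPM per kb of the 6 genes; points are libraries (M1 red, M2 blue) and lines are group means. The beta1 and beta5 ratios stand higher in M1, and the beta2 ratio stands slightly lower.

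The promoter sequences of both beta1 and both beta5 genes are shown because these pairs differed most in ratio. Given are the 150 bases before the annotated start from RefSeq, build GRCm38.p6, 5′ to 3′ on the gene's strand, with capitals marking a match to 1 of 3 motifs searched on both strands: the interferon-stimulated response element as GAAA, any 2 bases and GAAA, the gamma-activated site as TTCNNNGAA and the antioxidant response element as TGACNNNGC. The RefSeq starts differ from the outer gene bounds of GENCODE vM21, and the stretches of Psmb9 and Psmb8 lie within the bounds given above.
Psmb9, chr17:34187331-34187480, minus strand: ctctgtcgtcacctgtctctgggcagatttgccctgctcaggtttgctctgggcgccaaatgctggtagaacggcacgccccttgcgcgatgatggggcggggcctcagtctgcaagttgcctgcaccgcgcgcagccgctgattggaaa
Psmb6, chr11:70525207-70525356, plus strand: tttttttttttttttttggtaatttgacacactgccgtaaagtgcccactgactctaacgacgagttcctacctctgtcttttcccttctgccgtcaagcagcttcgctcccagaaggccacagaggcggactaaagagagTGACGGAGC
Psmb8, chr17:34198045-34198194, plus strand: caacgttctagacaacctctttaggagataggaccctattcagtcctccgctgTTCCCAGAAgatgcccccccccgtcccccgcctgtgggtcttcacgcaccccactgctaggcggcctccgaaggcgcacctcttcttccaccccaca
Psmb5, chr14:54617996-54618145, minus strand: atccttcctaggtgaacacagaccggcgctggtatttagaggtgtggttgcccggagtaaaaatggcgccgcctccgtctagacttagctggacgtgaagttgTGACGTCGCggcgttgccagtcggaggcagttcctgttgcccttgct

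In the inducible pair, Psmb8 carried 1 match to the gamma-activated site, whose first base lies 97 bases before the start, and Psmb9 carried no match to any of the 3 motifs. In the constitutive pair, Psmb6 and Psmb5 each carried 1 match to the antioxidant response element, which begins 9 and 47 bases before the start. Promoters were found for 42 of the 50 genes. In the 250 bases before the start, a gamma-activated site was matched in 2 of the 42, Psmb8 and Psmg1, beside 8.13% of all 27025 genes with a promoter. The interferon-stimulated response element was matched in 3 of the 42 (Psmb3, Psmd4 and Psmd9), beside 3.46% of all genes. The antioxidant response element was matched in 5 of the 42 (Psmb5, Psmb6, Psmc6, Psmd12 and Psmd9), beside 11.5% of all genes. No 2 matches overlapped. A match describes letters in the window and is not evidence of binding.

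In the alpha ring, which forms the gate of the barrel, all 7 widely expressed subunits were higher in M1, with changes from 1.01 to 2.09 log2 units. Psma5 rose most, with 271 and 257 CPM in the M1 libraries, against 60.3 and 64.0 CPM in the M2 libraries, a change of 2.09 ± 0.07 (4.24-fold, adjusted p = 2.06e-13 by edgeR). Psma6 had 303 and 317 CPM in the M1 libraries, against 91.9 and 95.9 CPM in the M2 libraries, a change of 1.72 ± 0.06 (3.30-fold). These 2 stood apart from the others of the ring: Psma3 (1.38) and Psma7 (1.36) came next, and Psma4, Psma2 and Psma1 lay between 1.01 and 1.12, each with an SE of 0.06. Psma8, the alpha subunit of germ cells, was at 0.858 and 1.10 CPM in M1 and 1.28 and 2.04 CPM in M2 and was called lower (-0.81 ± 0.29, adjusted p = 0.0194 by edgeR). That call rests on few counts: over the alternatives its adjusted p ran from 0.00109 to 0.337, and it was lost with DESeq2, without M1 replicate 1 and without M2 replicate 2.

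The 4 non-catalytic beta subunits were also higher in M1. Psmb2 had 125 and 129.7 CPM in M1 and 56.3 and 59.8 CPM in M2 (1.13 ± 0.06), Psmb3 had 145 and 148 CPM in M1 and 68.6 and 70.5 CPM in M2 (1.07 ± 0.06) and Psmb4 had 226 and 233 CPM in M1 and 119.8 and 122 CPM in M2 (0.92 ± 0.06). Psmb1 rose least of the core subunits, with 158 and 159 CPM in the M1 libraries, against 103 and 110.2 CPM in the M2 libraries, a change of 0.57 ± 0.06 (adjusted p = 6.32e-07 by edgeR). Under total-count scaling it was no longer called (0.12, adjusted p = 0.0700; over all alternatives 1.48e-29 to 0.0700). Across the 14 widely expressed core subunits the smallest change was thus 1.49-fold and the largest 4.24-fold. In a core without inducible subunits their proteins stand in equal numbers.

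The 19S particle moved with the core. All 9 base subunits and 7 of the 8 lid subunits were higher in M1, and the median change of the 17 was 0.95 log2 units. The 6 ATPases of the base, Psmc1 to Psmc6, which unfold substrates, changed by 0.72 to 1.24. Psmc1 led them with 283 and 284 CPM in the M1 libraries, against 119 and 121 CPM in the M2 libraries (1.24 ± 0.06, adjusted p = 4.99e-11 by edgeR), followed by Psmc4 (1.20), Psmc2 (1.10) and Psmc6 (1.01), while Psmc5 (0.76) and Psmc3 (0.72) rose least. Psmd2 and Psmd1 encode the large scaffold proteins of the base. Psmd2 had 473 and 452 CPM in M1 and 258 and 255 CPM in M2 (0.85 ± 0.06), and Psmd1 had 242 and 242 CPM in M1 and 143 and 143 CPM in M2 (0.76 ± 0.06). Psmd4, a ubiquitin receptor, had 178 and 185 CPM in M1 and 83.2 and 84.1 CPM in M2 (1.12 ± 0.06). Of the 17 subunits, 6 were called beyond 2-fold: Psmd4, Psmc1, Psmc4, Psmd3, Psmd7 and Psmd11.

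The lid, which holds the deubiquitinase, was less even. Psmd11 rose most, with 203 and 198 CPM in the M1 libraries, against 63.3 and 70.1 CPM in the M2 libraries, a change of 1.58 ± 0.07 (adjusted p = 6.74e-12 by edgeR). Its M2 libraries differed somewhat, yet both lay far below M1. Psmd3 had 235 and 245 CPM in M1 and 87.3 and 87.2 CPM in M2 (1.46 ± 0.06) and Psmd7, the partner of the deubiquitinase, had 177 and 179 CPM in M1 and 74.2 and 81.4 CPM in M2 (1.19 ± 0.06). Psmd14, the deubiquitinase itself, had 135 and 133 CPM in M1 and 72.4 and 75.6 CPM in M2 (0.86 ± 0.06), and Psmd12 changed by 0.95 ± 0.06. Psmd13 (0.65 ± 0.06) and Psmd6 (0.33 ± 0.06) rose least, and the value of Psmd6 turned to -0.12 and was not called under total-count scaling. Psmd8, which is incorporated last into the lid, went the other way with 193 and 200.4 CPM in the M1 libraries, against 225 and 231 CPM in the M2 libraries. The difference was small (-0.21 ± 0.06, adjusted p = 0.00537 by edgeR), and it was not called without M2 replicate 2 (adjusted p = 0.0799). Over the alternatives it kept its sign, from -0.66 to -0.18, with adjusted p from 1.15e-07 to 0.0799. With TMM scaling no other 19S subunit had a higher mean level in M2 than in M1.

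**Figure D3:**
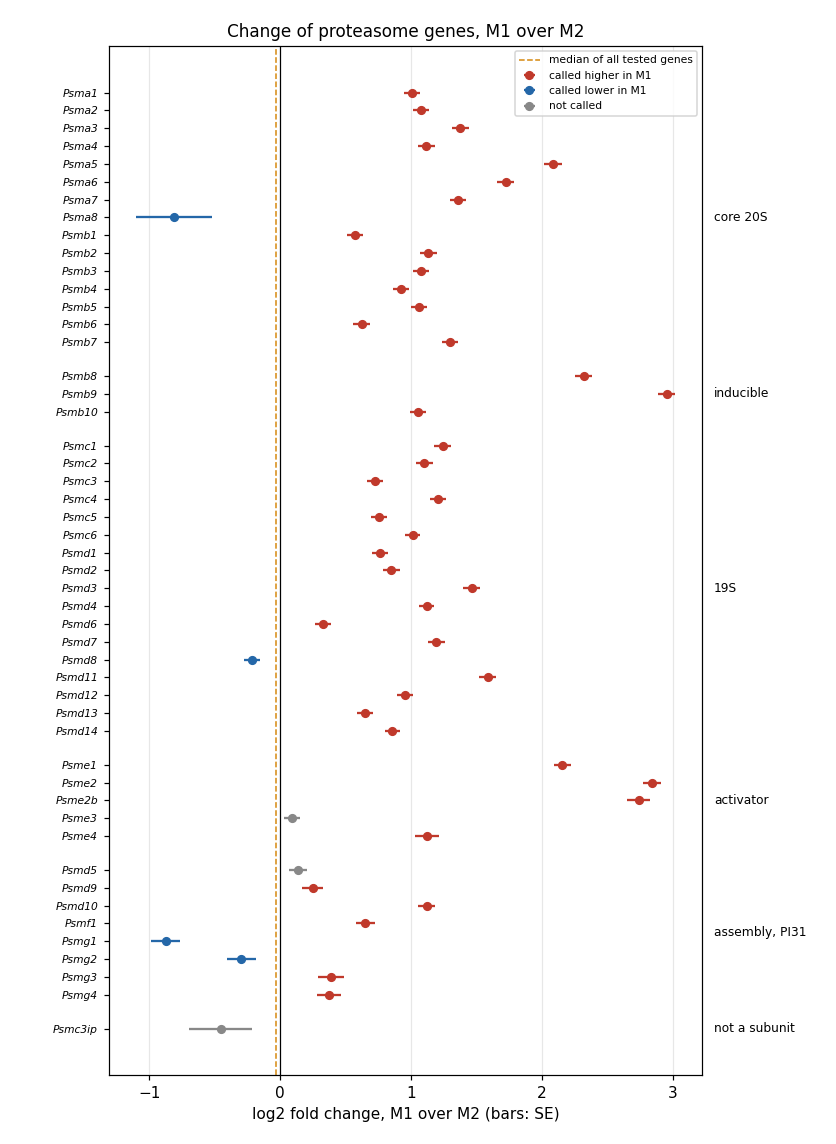
Log2 fold change of M1 over M2 with its standard error for the 49 tested genes, by class; red genes were called higher in M1, blue lower and grey not called, and the dashed line is the median of all 14656 genes. Psmb9, Psme2, Psme2b, Psmb8 and Psme1 stand furthest right. Psmb10 lies among the 20S genes, Psme3 lies near 0, and most 20S and 19S genes lie near 1. The assembly factors and PI31 run from -0.88 to 1.12, with a median of 0.31.

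The activators split by type. Psme1 and Psme2 encode PA28 alpha and beta, which form the interferon-responsive cap that opens the barrel without ubiquitin or ATP. Psme2 (chr14:55587441-55591113, minus strand) had 821 and 867 CPM in the M1 libraries, against 119 and 116 CPM in the M2 libraries, and Psme1 (chr14:55578123-55581529, plus strand) had 615 and 619.7 CPM in the M1 libraries, against 138 and 139 CPM in the M2 libraries. In both genes the replicates nearly coincided and the groups lay far apart. Psme2 changed by 2.84 ± 0.07 (7.17-fold, adjusted p = 1.25e-14 by edgeR) and Psme1 by 2.16 ± 0.07 (4.46-fold, adjusted p = 1.24e-13). In the order of changes Psme2 came next after Psmb9, and the gap between them was 1.13 times their combined SE. Psme3, the nuclear PA28 gamma, had 88.3 and 92.1 CPM in the M1 libraries, against 85.3 and 83.9 CPM in the M2 libraries and was not called (0.09 ± 0.06, adjusted p = 0.167 by edgeR). Its value depended on the scaling and on 1 library: it was called lower under total-count scaling (-0.36) and higher without M1 replicate 1 (0.13), with adjusted p from 6.30e-05 to 0.731 over the alternatives. Psme4, which encodes the large nuclear activator PA200, had 257 and 208 CPM in the M1 libraries, against 109.8 and 104 CPM in the M2 libraries. The M1 libraries were unequal, both lay above M2, and the change was 1.12 ± 0.09 (adjusted p = 4.04e-07 by edgeR).

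Psme2b, a copy of Psme2, had 62.0 and 55.2 CPM in the M1 libraries, against 8.24 and 9.23 CPM in the M2 libraries (2.74 ± 0.09). Its counts equalled 7.55% and 6.37% of those of Psme2 in the M1 libraries and 6.90% and 7.93% in the M2 libraries, and 52.0% of the 100-base windows of its transcript occur exactly in Psme2. Its value is uncertain, because the counting could have split reads of Psme2 between the copies.

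The assembly factors were mixed. Psmg1 and Psmg2 form the chaperone pair PAC1-PAC2, which builds the alpha ring, and both were called lower in M1. Psmg1 had 6.01 and 6.67 CPM in the M1 libraries, against 12.0 and 11.2 CPM in the M2 libraries (-0.88 ± 0.11, adjusted p = 3.99e-06 by edgeR). It kept that direction and call under all 13 alternatives. Psmg2 had 9.37 and 11.6 CPM in the M1 libraries, against 13.2 and 12.4 CPM in the M2 libraries (-0.30 ± 0.11, adjusted p = 0.0251), and the call was lost with DESeq2, without M1 replicate 1 and without M2 replicate 1, with adjusted p up to 0.255. Psmg3 and Psmg4, the partner pair PAC3-PAC4, were called higher. Psmg3 had 12.9 and 14.5 CPM in M1 and 10.3 and 10.5 CPM in M2 (0.39 ± 0.10), and Psmg4 had 14.3 and 13.8 CPM in M1 and 10.6 and 11.1 CPM in M2 (0.37 ± 0.09). Under total-count scaling their values turned to -0.057 and -0.075 and neither was called. Both calls were also lost under upper-quartile scaling (adjusted p = 0.0773 for Psmg3 and 0.0882 for Psmg4 by edgeR), and that of Psmg4 without M2 replicate 1 (adjusted p = 0.0549).

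Among the chaperones of the 19S base, Psmd10 (gankyrin) rose with the subunits. It had 64.5 and 63.1 CPM in M1 and 28.2 and 30.4 CPM in M2, a change of 1.12 ± 0.07 (adjusted p = 5.35e-10 by edgeR). Psmd9 had 31.8 and 28.1 CPM in M1 and 24.7 and 25.7 CPM in M2 (0.25 ± 0.08, adjusted p = 0.0101), and its call was lost without M1 replicate 1 and without either M2 library, with no filter and with upper-quartile scaling, and its direction flipped under total-count scaling (-0.20). Psmd5 was at 48.2 and 43.4 CPM in M1 and 43.1 and 40.4 CPM in M2 and was not called (0.14 ± 0.07, adjusted p = 0.0952 by edgeR). It was called higher without M1 replicate 2 (0.21) and lower under total-count scaling (-0.31), with adjusted p from 8.33e-04 to 0.569. Psmf1, which encodes the core-binding regulator PI31, had 39.9 and 37.7 CPM in M1 and 24.6 and 24.9 CPM in M2 and rose by 0.65 ± 0.07 (adjusted p = 6.39e-07). In all, 5 of these 8 genes were called higher and 2 lower, beside 37.5% and 39.7% of all genes. Under total-count scaling 2 of the 8 were higher and 4 lower, beside 22.8% and 58.5%. Upper-quartile scaling gave 2 higher and 2 lower, beside 30.7% and 47.6%. With TMM scaling these counts also depended on single libraries. Psmc3ip, which is no proteasome gene, was at 1.10 to 1.78 CPM in the 4 libraries and was not called (-0.46 ± 0.24, adjusted p = 0.101 by edgeR). It was called lower under upper-quartile and total-count scaling, with adjusted p from 0.00317 to 0.406 over the alternatives.

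The parts of the complex were also compared with each other within each library, where the scaling cancels, as levels per kb of coding sequence. The median alpha subunit stood at 319 and 342 CPM per kb in M1 and 132 and 135 in M2. Relative to it, the median of PA28 alpha and beta was 3.02 and 2.92 times as high in M1, against 1.31 and 1.27 times in M2. The PA28 pair thus stood further above the alpha ring in M1 than in M2. The median 19S ATPase was 0.416 and 0.396 times the alpha subunit in M1, against 0.517 and 0.533 times in M2. The median constitutive beta subunit was also lower against it, at 0.737 and 0.707 times in M1 and 0.889 and 0.931 times in M2. Both classes rose by a median of 1.06 log2 units, less than the alpha ring (1.36). Per kb of merged exons the beta ring did not separate the groups (1.36 and 1.33 in M1, 1.33 and 1.38 in M2). PA28 gamma stood at 0.331 and 0.322 times in M1, against 0.773 and 0.744 times in M2. With merged exon lengths the levels differ, at 4.87 and 4.76 in M1 against 1.85 and 1.79 in M2 for PA28 alpha and beta, and 0.993 and 0.955 in M1 against 1.12 and 1.13 in M2 for the ATPases, in the same directions. The SD of the 14 widely expressed core subunits around their mean was 0.316 and 0.322 log2 units in M1 and 0.354 and 0.341 in M2. For the 8 lid subunits it was 0.438 and 0.460 in M1 and 0.694 and 0.685 in M2. These ratios are descriptions and were not tested.

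Genes that work with the proteasome moved less evenly. Of 17 partners tested that are not named Psm, 10 were called higher, 4 lower and 3 not called, with a median of 0.37 log2 units, beside 37.5% and 39.7% of all genes. Under upper-quartile scaling 9 were higher and 7 lower (median 0.18), beside 30.7% and 47.6% of all genes, and under total-count scaling 5 were higher and 8 lower (median -0.082), beside 22.8% and 58.5%. Pomp, the chaperone that completes the core and favours immunoproteasome assembly, had 272 and 289 CPM in M1 and 132 and 141 CPM in M2 (1.04 ± 0.07). Adrm1, a ubiquitin receptor of the base, had 117 and 118 CPM in M1 and 58.2 and 61.0 CPM in M2 (0.98 ± 0.06), and Fbxo7, a binding partner of PI31, had 38.9 and 34.8 CPM in M1 and 17.9 and 18.2 CPM in M2 (1.03 ± 0.08). On the lower side stood Ddi2, the protease that activates the transcription factor Nfe2l1, at 49.1 and 42.8 CPM in M1 and 109 and 108 CPM in M2 (-1.24 ± 0.07). Ubqln2, a shuttle for ubiquitinated proteins, was at 31.7 and 33.0 CPM in M1 and 54.1 and 54.8 CPM in M2 (-0.75 ± 0.07), and Usp14, a deubiquitinase of the 19S particle, was at 64.4 and 64.8 CPM in M1 and 103 and 104 CPM in M2 (-0.68 ± 0.06). Not called were Ube3c (-0.02), Akirin2 (0.02) and Zfand5 (-0.02), all 3 of which were called lower under upper-quartile and total-count scaling. The largest adjusted p of the 6 genes with levels above was 4.86e-08 by edgeR.

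Of 7 genes that regulate proteasome genes, 6 were called higher, 0 lower and 1 not called, with a median of 1.78. Over all genes, 37.5% were called higher and 39.7% lower. The median of the 7 is the value of Nfe2l3, a relative of Nfe2l1 with 11 and 11 counts in M1 and 5 and 4 counts in M2. Its call was lost with DESeq2, where 5 of 7 were called higher, and it also depended on single libraries. Without M1 replicate 2 its change was 1.66, and without M2 replicate 2 it was 1.32. Over the alternatives the median ran from 1.32 to 2.17. The one not called was Nfe2l2, the regulator of the antioxidant response, at 253 and 243 CPM in M1 and 257 and 257 CPM in M2 (-0.05 ± 0.06, adjusted p = 0.47 by edgeR). Under total-count scaling 6 were called higher and 1 lower, beside 22.8% and 58.5% of all genes. Nlrc5, the transactivator of MHC class I genes, had 722 and 691 CPM in M1 and 24.2 and 21.5 CPM in M2 (4.95 ± 0.08). Irf1 and Irf8 encode interferon regulatory factors, of which Irf1 drives immunoproteasome genes. Irf1 had 1267 and 1305 CPM in M1 and 98.1 and 90.9 CPM in M2 (3.77 ± 0.08), and Irf8 had 711 and 838 CPM in M1 and 164 and 169 CPM in M2 (2.22 ± 0.08). Nfe2l1, which sustains constitutive proteasome genes when proteasome activity is short, had 402 and 396 CPM in M1 and 230.5 and 216 CPM in M2 (0.84 ± 0.06). Nfe2l1, Nfe2l2, Nfe2l3, Ube3c, Akirin2 and Zfand5 were named after their values were seen. Of 17 genes of MHC class I peptide supply, 16 were called higher and 1 lower, beside 37.5% and 39.7% of all genes. They were led by the peptide transporter subunits and a tapasin relative, Tap1 (4.58), Tapbpl (3.14) and Tap2 (3.04). The lower one was Thop1, a cytosolic peptidase that destroys such peptides, at 10.5 and 10.8 CPM in M1 and 23.1 and 22.6 CPM in M2 (-1.10 ± 0.09). Under total-count scaling 10 of the 17 were higher and 3 lower, beside 22.8% and 58.5% of all genes.

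Ubiquitin genes themselves divided. Of 8 genes of ubiquitin supply and extraction 7 were called higher and 1 lower with TMM scaling, beside 37.5% and 39.7% of all genes. The split was 6 and 2 under total-count scaling, beside 22.8% and 58.5%. Nploc4 (1.42), the polyubiquitin gene Ubb (1.10) and the unfolding ATPase Vcp (1.06) led the higher ones. The 1 lower with TMM scaling was Rps27a (-0.66), which encodes ubiquitin fused to a ribosomal protein. Its counts are uncertain where pseudogene copies take reads. All 5 genes of the ubiquitin-like modifiers ISG15 and FAT10 were called higher, also under total-count scaling, beside 37.5% and 22.8% of all genes. Isg15 had 1149.7 and 1038 CPM in M1 and 6.64 and 4.86 CPM in M2. Usp18 had 827 and 733 CPM in M1 and 10.2 and 7.97 CPM in M2, and Herc6 had 675 and 579 CPM in M1 and 18.5 and 17.8 CPM in M2. Ubd, the FAT10 gene, rested on few counts, 51 and 46 in M1 and 0 and 2 in M2.

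How firmly a small change can be read depends on the scaling. Total-count scaling moved the median of all genes by -0.45 log2 units and upper-quartile scaling by -0.18, so that 28.1% and 39.2% of all calls were higher in M1 under them, against 48.6% with TMM. Of the proteasome genes, 37 of 49 were called higher and 8 lower under total-count scaling, beside 22.8% and 58.5% of all genes. Under upper-quartile scaling 39 were higher and 5 lower, beside 30.7% and 47.6%. Beyond 2-fold, 19 became 8 under total-count and 12 under upper-quartile scaling. Over all 14656 genes, 2163 higher beyond 2-fold became 1582 and 1879. Under total-count scaling the class medians were 1.87 for the inducible subunits, 1.71 for the activators, 0.63 for the 20S core, 0.50 for the 19S particle and -0.14 for the assembly factors. The 4 called genes whose direction flipped under total-count scaling were Psmd6, Psmd9, Psmg3 and Psmg4.

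**Figure D4:**
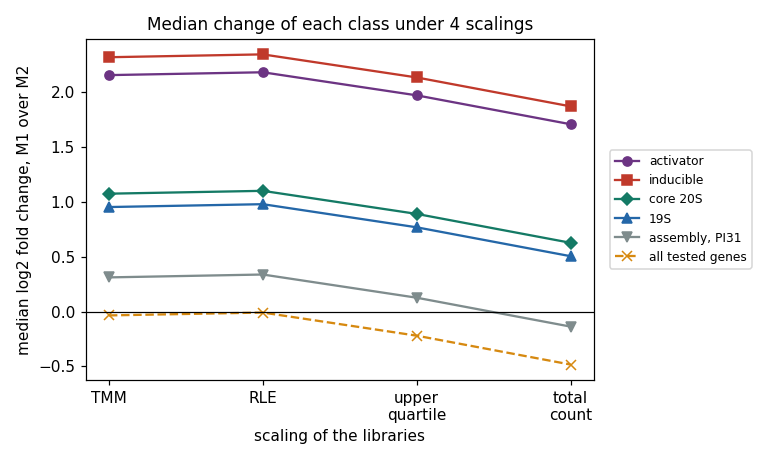
Median log2 fold change of M1 over M2 for each class of proteasome genes and for all tested genes under 4 ways of scaling the libraries. The inducible, activator, 20S and 19S medians stay above 0 under all 4, and the assembly median crosses 0 under total-count scaling.

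Reads shared with neighbours or copies touch some of these values. The library kit does not mark strand, and 15 of the 50 genes have exon bases in common with another gene. Beside Psmb9 and Tap1, Psmb8 shares 498 bases with the antisense gene Gm20496, which reached at most 4.91 CPM. Psmb7 shares 405 bases with Nek6, which had 17.2 and 18.8 CPM in M1 and 183 and 181 CPM in M2, and the part of that overlap in Psmb7 was not tested. By sequence, 20 of the 50 have 100-base windows of their transcript in common with another gene, and for 6 of them this concerns over 20% of windows: Psme2, Psme2b, Psma5, Psmb5, Psma3 and Psmc3ip. Annotated pseudogenes named after proteasome genes held almost no reads, with 0 to 2 counts each over the 4 libraries for the 4 in the table. Genes with other names that share windows held more. Gm13835 (with Psma3) had 91 and 68 counts in M1 and 27 and 66 in M2. Gm8394 and Gm12989 (with Psma5) had 37 and 31, and 20 and 19, in M1 and 3 and 7, and 2 and 7, in M2. Gm3375 (with Psmb5) had 18 and 17 in M1 and 19 and 18 in M2. The part of such reads in the proteasome values was not tested. How reads in such places were assigned is not given in the sources used here.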

How the data were processed

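Poly(A) RNA was sequenced as paired 150-base reads with a kit that does not mark strand, per the labels' protocols. The authors deposited raw read counts per Ensembl gene, not normalized. Per the submitters' processing notes, DESeq, DESeq2, featureCounts, STAR 2.5.2b, Subread 1.5.2 and Trimmomatic 0.36 were used with GRCm38, with no settings given in the sources used here. A deposited table of fold changes was left out, because it lists symbols without gene identifiers.

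Symbols, coordinates and lengths came from GENCODE vM21 (49056 of 49315 rows matched). edgeR 4.0.16 (R 4.3.3) was fitted to all 4 libraries: filterByExpr (count threshold 10, total 15), TMM factors (0.846 and 0.866 in M1, 1.17 and 1.17 in M2), robust quasi-likelihood F test, two-sided, Benjamini-Hochberg adjustment over 14656 genes, calls at 0.05. The SE is the absolute log2 fold change over the square root of F. Replicates differed beyond counting noise (chi-square per degree of freedom 13.3 in M1, 2.30 in M2), and the 2 libraries of a group were not counted as 1. Replicate numbers follow accession order and pair nothing.

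Alternatives were scaling by total count, by upper quartile, by RLE and by TMM leaving out the 50 most abundant genes, no filter, at least 5 CPM in 2 libraries, DESeq2 1.42.0, limma-voom (limma 3.58.1), a non-robust fit and each library left out. Members, lists and motifs were chosen with earlier results of these data known. Catalytic and activator genes were always named, otherwise up to 4 called members of a class each way, members not called, and up to 3 called genes of a list each way with at least 5 CPM. Further members were named to show a class in full, after their values were seen. So were Lyz2, Col1a1, Ccr7, Xcr1, Flt3, Zbtb46, Ubd, Nek6, Gm13835, Gm8394, Gm12989 and Gm3375. Paaf1 was not found by that symbol, and Nrdc was matched as Nrd1. Some genes that belong to these pathways were left out of the lists and are not reported here.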

Additional observations from a re-analysis of the deposited data

How the results depend on the processing

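Of 230 recomputed summary values (counts of calls and catalytic ratios), 207 stayed within 1.5 times the count or within the spread between libraries and 23 did not. The 207 include the differences of log2 catalytic ratios under other gene lengths, which could not move because length cancels. Called higher were 3342 genes under total-count scaling, against 5495. Under total-count scaling 8 members were lower, against 4, with 1 activator and 4 assembly genes lower, 2 assembly genes higher, and beyond 2-fold 8 higher and 1 lower. Of all 14656 genes, 58.5% were lower under that scaling, against 39.7%. Beyond 2-fold, 1582 of them were higher and 3855 lower, against 2163 and 2677. Upper-quartile scaling gave 2 assembly genes higher and 12 members beyond 2-fold, beside 4500 and 1879 of all genes. DESeq2 called 2 members lower, with 0 core and 1 assembly gene among them, and a filter of 5 CPM left 0 core genes lower. Of all genes tested, 4973 of 14656 were lower with DESeq2 and 4215 of 10145 with that filter. The catalytic share differed by 17.7 points with coding lengths and 15.0 with the longest transcript, against 12.7. With each library left out, 2 to 4 members, 0 to 1 core, 0 to 1 19S and 1 to 2 assembly genes were lower, and 3 to 6 assembly genes higher. Among genes called with TMM, the log2 value reversed under total-count scaling for Psmd6 (-0.12), Psmd9 (-0.20), Psmg3 (-0.057), Psmg4 (-0.075), Uchl5 (-0.26), Zfand2a (-0.069), Ubqln1 (-0.032), Rad23b (-0.082), Erap1 (-0.11), Pdia3 (-0.022), Calr (-0.21), Canx (-0.16) and Uba6 (-0.26), as that scaling lowers every M1 value. Among genes not called with TMM, Psme3 (-0.36), Psmd5 (-0.31) and Akirin2 (-0.43) also changed sign under it. The cause of the other shifts was not tested. No paired analysis was possible because the labels give no replicate numbers. With 1 library left out, the lone library is assumed to vary like the others. Psma8 rested on 25 to 94 counts a library, so its counting error is large beside that of the other core subunits.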
